A study of Mus musculus with 48 samples.

Results

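The receptors for stress hormones and the genes that answer to glucocorticoids were followed through the amygdala RNA counts of 48 mice. They are 10 of the 48440 genes in the deposited table, taken by name whatever their values, with Ensembl identifiers matched to symbols through GENCODE. They were the corticosteroid receptors *Nr3c1* and *Nr3c2*, the receptors of corticotropin-releasing hormone *Crhr1* and *Crhr2*, the glucocorticoid response genes *Fkbp5*, *Sgk1*, *Tsc22d3* and *Per1*, and the corticosterone-converting enzymes *Hsd11b1* and *Hsd11b2*. All 10 were listed and all 10 had counts, 1778 read pairs in all. Of these, 57.3% were on *Nr3c2* and 18.3% on *Hsd11b2*, and 7 of the 10 genes had a mean of at most 3 counts per sample.

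The mice were adult males aged 4 months, labelled C57BL/6 and from a line kept on C57BL/6N, offspring of *Tph2*+/- parents, with 8 mice in each of 6 groups. The study assigned rearing to whole litters, so MS and C mice were not littermates. Mice of different genotypes within a rearing could be. *Tph2* encodes the enzyme that makes serotonin in the brain, and its inactivation was constitutive, so that it was present in every cell from conception on. *Tph2*+/+, *Tph2*+/- and *Tph2*-/- mice had either been taken from the dam for 3 h per day from postnatal day 2 to 15 (maternal separation, MS) or reared without this stress (control, C). All males lived alone after weaning and went through behavioral testing before the tissue was taken, which applies to the controls as well. The 2 amygdalae of a mouse were powdered and blended, so that each sample is 1 mouse. In such bulk tissue, fewer cells of a type and less RNA per cell cannot be told apart.

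Corticosterone, the main glucocorticoid of the mouse, acts through the mineralocorticoid receptor (*Nr3c2*), which binds it tightly, and the glucocorticoid receptor (*Nr3c1*), which is filled mainly when the hormone is high. The bound receptors enter the nucleus and switch on genes such as *Fkbp5*, whose product is a co-chaperone that lowers the receptor's affinity for the hormone, *Sgk1*, which encodes a kinase, *Tsc22d3*, which encodes the leucine zipper protein GILZ, and *Per1*, a clock gene. HSD11B1 regenerates corticosterone from its inactive form and HSD11B2 inactivates it, while CRHR1 and CRHR2 bind the peptides CRH and the urocortins. The amygdala expresses these receptors and is part of the circuit that controls the stress response.

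Promoter sequences are shown first, since the bound receptors are known to act through short DNA motifs near the genes they switch on. The glucocorticoid response element was searched as its hexamers AGAACA and TGTTCT, which are each other's reverse complement, so that both strands were covered, and as the 2 hexamers 3 bases apart (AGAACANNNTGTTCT), a stretch that holds both hexamers. RefSeq promoters on GRCm38.p6 reach from 250 bases before a gene's start to 50 bases after it, and 16 of them belonged to 8 of the genes. A hexamer was present in 4 of these 16 promoters, 3 of *Sgk1* and 1 of *Tsc22d3*, and in 6233 of all 32851 promoters. The spaced pair was found in 3 promoters of the whole table (0.00913%), and 1 of them was the *Sgk1* promoter at chr10:21993640-21993939 (plus strand), where the pair begins 189 bases before the start. The *Tsc22d3* promoter at chrX:140600473-140600772 (minus strand) had 1 hexamer 185 bases before the start, and the *Nr3c2* promoter at chr8:76902080-76902379 (plus strand), shown because this gene had the most counts, had none. Capitals mark the hexamers. A match is a description of the letters and no measurement of binding.
Sgk1: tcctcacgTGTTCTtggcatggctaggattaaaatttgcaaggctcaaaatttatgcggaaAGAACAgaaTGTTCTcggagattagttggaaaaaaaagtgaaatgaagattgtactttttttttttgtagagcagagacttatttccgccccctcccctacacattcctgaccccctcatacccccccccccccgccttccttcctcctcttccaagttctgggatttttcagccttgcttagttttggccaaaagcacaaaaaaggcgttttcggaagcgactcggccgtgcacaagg
Tsc22d3: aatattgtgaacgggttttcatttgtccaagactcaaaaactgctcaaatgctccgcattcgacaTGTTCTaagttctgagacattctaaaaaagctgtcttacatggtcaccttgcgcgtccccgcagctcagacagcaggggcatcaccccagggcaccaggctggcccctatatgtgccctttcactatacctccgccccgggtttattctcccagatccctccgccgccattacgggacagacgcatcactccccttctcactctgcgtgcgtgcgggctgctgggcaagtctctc
Nr3c2: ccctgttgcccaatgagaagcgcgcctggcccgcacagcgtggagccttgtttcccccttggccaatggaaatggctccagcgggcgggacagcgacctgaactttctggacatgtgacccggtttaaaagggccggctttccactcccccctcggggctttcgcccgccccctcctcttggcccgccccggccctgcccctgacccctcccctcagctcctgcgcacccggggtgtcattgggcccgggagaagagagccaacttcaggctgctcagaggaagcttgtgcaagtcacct

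The depth on genes limited all values. Counts on genes lay between 609489 and 6296568 read pairs per sample (median 738490), and between 75.8% and 97.6% (median 97.5%) of the uniquely placed pairs of a sample were on no annotated gene. In 4 libraries, more than 500000 counts were on *Gm42418*, a long non-coding RNA, and *Lars2* took between 17873 and 1307622 counts. A count of 0 allows up to 3 counts, and this floor of 3 counts corresponded to between 2.88 and 7.07 CPM (median 3.89), where CPM is the count per 1000000 of the library size after TMM scaling. The floor covers counting error only, while the intervals and p-values of the fits also hold the spread between mice. *Tph2* had 1 count in each of 2 samples, replicates 3 and 5 of *Tph2*-/- MS, and none in the other 46, all *Tph2*+/+ and *Tph2*+/- samples among them, so the genotypes could not be checked from it.

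The strand on which a pair was counted bears on what a count of a stress gene stands for, and the strand setting is not given in the sources used here. Among protein-coding genes whose exons lie opposite to exons of another gene, 38.5% of 5247 had a mean of at least 10 counts (median of the means 4.73). Where the exons face only introns of an opposite gene, 18.2% of 1177 did (median 1.31), and with no gene opposite to the exons 5.52% of 15246 did (median 0.354). In this table, a gene without an opposite partner thus had few counts whatever its known abundance in brain, as with *Snap25*, an abundant synaptic gene, at a mean of 8.50 counts. The library kit preserved strand, and a stranded library counted with the opposite setting would place reads of the opposite strand on a gene. Whether the counts given here, those of *Hsd11b2* included, are such antisense reads was not tested, and a count on one of the 10 genes cannot be taken as the level of its mRNA.

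Only *Nr3c2* has exons opposite to exons of another gene. Over 247 bases they face exons of *Gm10649*, a long non-coding RNA that starts inside *Nr3c2* and runs the other way (chromosome 8, 76605226 to 76900621, minus strand), and 615 of its exonic bases lie within the span of *Gm10649*. *Gm10649* had a mean of 55.7 counts per sample, more than *Nr3c2*. *Hsd11b1* lies wholly within *Lamb3*, a laminin gene on the other strand (chromosome 1, 193207699 to 193343878, plus strand), with 4251 exonic bases in its span and 0 opposite to its exons, and 739 of them also lie in the span of *4930570N18Rik*, an antisense gene. *Lamb3* had a mean of 2.00 and *4930570N18Rik* of 0.0625 counts. *Gm24838*, a snoRNA gene with a mean of 0.542 counts, lies opposite to an intron of *Nr3c2*. Opposite to introns of *Fkbp5* lie *Gm22146*, a small RNA gene with a mean of 6.75 counts, and *AC154912.1*, an antisense gene (chromosome 17, 28446500 to 28456457, plus strand) that was not analysed here, and neither faces its exons. The other genes have no opposite gene within their span. The nearest such gene to *Hsd11b2* is *Atp6v0d1*, a subunit of the vacuolar proton pump, whose annotated 3′ end lies 477 bases past that of *Hsd11b2*, and which had a mean of 0.312 counts.

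**Figure D1:**
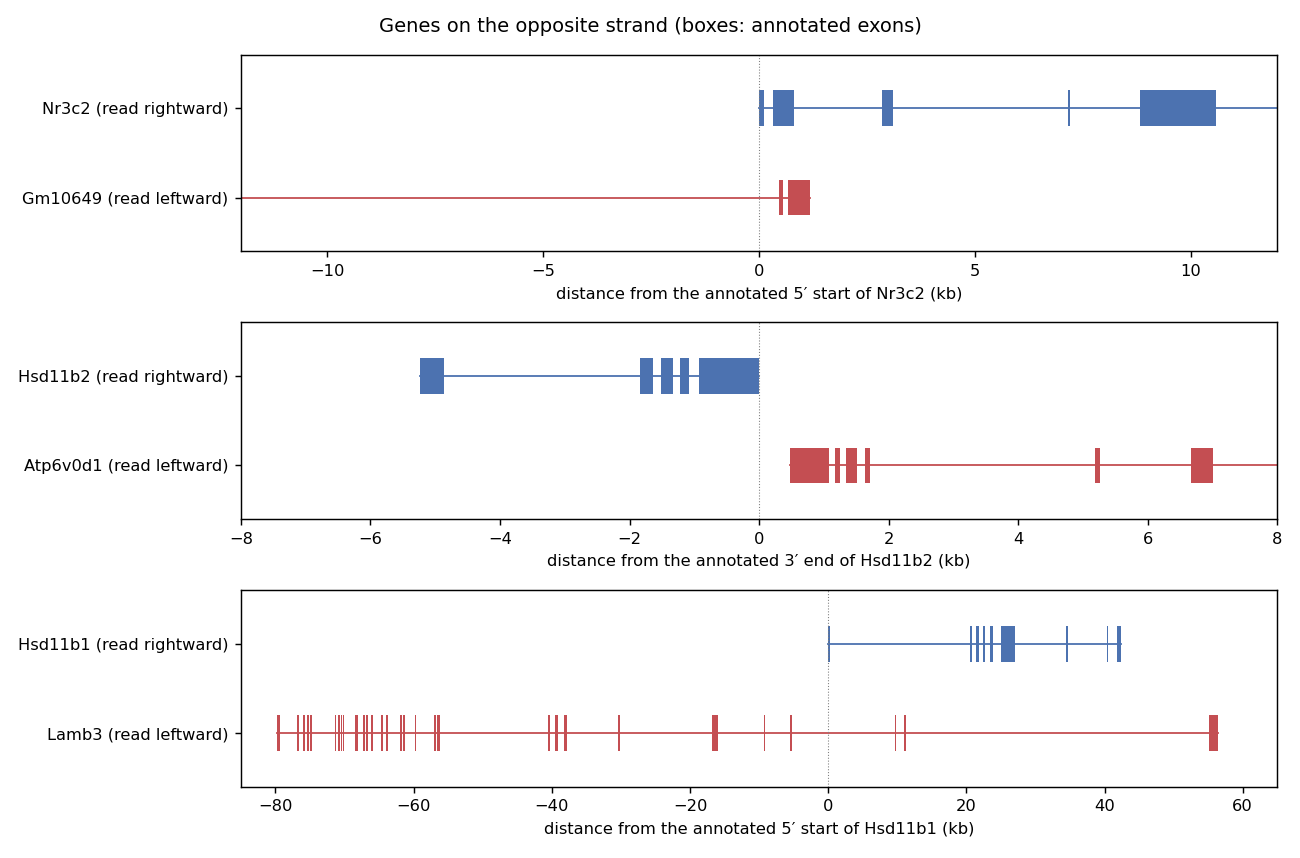
Annotated exons (boxes) and spans (lines) of 3 stress genes (blue) and the nearest or overlapping gene on the other strand (red), with the distance in kb from the start of *Nr3c2*, the end of *Hsd11b2* and the start of *Hsd11b1*. The first exons of *Nr3c2* and *Gm10649* overlap, *Hsd11b2* and *Atp6v0d1* end tail to tail 477 bases apart, and *Hsd11b1* sits within *Lamb3* without facing its exons.

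Levels of different genes were compared per kb of exon. *Hsd11b2* (4.57 ± 2.00 CPM per kb, SD, n = 48 mice) and *Nr3c2* (4.14 ± 1.24) stood at the top and differed by less than their spread. *Nr3c1* followed with 0.637 ± 0.385 CPM per kb, and the step from *Nr3c2* to *Nr3c1* was the only step between neighbours that exceeded the larger SD. The next were *Sgk1* with 0.355 ± 0.367, *Hsd11b1* with 0.275 ± 0.262 and *Tsc22d3* with 0.268 ± 0.243 CPM per kb. *Crhr1* had 0.229 ± 0.372 and *Fkbp5* 0.147 ± 0.155 CPM per kb, and *Crhr2* and *Per1* stood last with 0.0429 ± 0.119 and 0.0391 ± 0.0917. The SD of *Sgk1* and of each of the genes from *Crhr1* down was above its mean. From *Nr3c1* down no step between neighbours exceeded the larger SD, so neighbours there have no order beyond their spread. Within groups, the variance of the counts was between 0.765 times (*Hsd11b1*) and 2.38 times (*Nr3c2*) their mean, where pure counting error gives a ratio near 1.

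The mineralocorticoid receptor gene *Nr3c2* (ENSMUSG00000031618, chromosome 8, 76899442 to 77245012, plus strand of GRCm38, 6474 exonic bases) was counted in every sample, and its total exceeded that of 92.3% of the genes in the table. In *Tph2*+/+ mice it had from 4 to 26 counts (median 18) under C and from 12 to 35 (median 20.5) after MS. In *Tph2*+/- mice it had from 11 to 34 (median 23) under C and from 16 to 34 (median 22.5) after MS. In *Tph2*-/- mice it had from 13 to 38 (median 19) under C and from 13 to 30 (median 25.5) after MS. The ranges of all 6 groups overlapped, and the lowest of the 48 values, 4 counts, was from replicate 8 of *Tph2*+/+ C. Scaled to library size, *Nr3c2* had 24.7 ± 9.69 CPM under C and 26.1 ± 6.72 after MS in *Tph2*+/+ mice (SD, n = 8). The means were 27.4 ± 8.67 under C and 28.3 ± 8.48 after MS in *Tph2*+/- mice, and 24.3 ± 9.03 and 29.9 ± 6.11 in *Tph2*-/- mice. Its lg2FC lay between -0.04 and 0.29 in 11 comparisons, their 95% intervals between -0.57 and 0.77, and its smallest nominal p was 0.127, for MS in *Tph2*-/- mice (lg2FC 0.29). Without replicate 6 of *Tph2*-/- C, the mouse with 38 counts, that lg2FC was 0.47 (nominal p of 0.019), still outside the thresholds. It was the only stress gene with a mean of at least 10 counts, and the gene whose log2 CPM followed it most closely over the 48 samples was *Rrp8* (Pearson's r = 0.522), a nucleolar methyltransferase gene, of 5643 genes with a median r of 0.00656. The r with *Gm10649* was 0.237. These samples share library depth and scaling, and the values are descriptions.

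The glucocorticoid receptor gene *Nr3c1* (ENSMUSG00000024431, chromosome 18, 39410545 to 39519421, minus strand, 7684 exonic bases) had a mean of 3.85 counts, close to the floor, and was above 3 counts in 23 of 48 samples. It had from 0 to 9 counts (median 4) in *Tph2*+/+ C and from 1 to 8 (median 4) in *Tph2*+/+ MS. In *Tph2*+/- mice it had from 1 to 8 counts (median 4.5) under C and from 0 to 4 (median 3) after MS. In *Tph2*-/- mice it had from 1 to 8 counts in both groups, with a median of 4.5 under C and 3 after MS. *Tph2*+/- MS was the group with the fewest counts, 19 in 8 mice, and only 1 of its mice was above the floor, while its range lay within that of *Tph2*+/+ C. The lg2FC of *Nr3c1* was -0.87 (standard error 0.45, nominal p of 0.0501) for MS in *Tph2*+/- mice and -0.89 (standard error 0.44, nominal p of 0.0442) for *Tph2*+/- against *Tph2*+/+ after MS, which share the *Tph2*+/- MS mice. Neither passed the thresholds for a DEG (nominal p below 0.01 and absolute lg2FC above 0.2), and edgeR's quasi-likelihood fit gave adjusted p of 0.792 and 0.765.

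The CRH receptor genes were at or near 0. *Crhr1* (ENSMUSG00000018634, chromosome 11, 104132855 to 104175523, plus strand) had 22 counts in all, from 0 to 3 per sample and 0 in 32 samples. Its groups had between 1 count in 8 mice (*Tph2*+/- MS) and 7 counts (*Tph2*-/- C). *Crhr2* (ENSMUSG00000003476, chromosome 6, 55090049 to 55133016, minus strand) had 9 counts in all, and 41 samples had none. Of its 9 counts, *Tph2*+/+ mice had 1 under C and 0 after MS, *Tph2*+/- mice 0 and 3, and *Tph2*-/- mice 3 and 2. For *Crhr2*, edgeR's nominal p was 0.0306 for the interaction GE1, with an adjusted p of 0.748, but all groups were at or under the floor and no fold change is given. No size of a difference can be given for either receptor at this depth.

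The glucocorticoid response genes also stayed at or under the floor on average. *Sgk1* (ENSMUSG00000019970, chromosome 10, 21882184 to 21999903, plus strand), whose promoter holds the spaced pair of hexamers, had 67 counts, 21 of them in *Tph2*-/- MS mice (from 0 to 6 per mouse, median 2). *Tph2*-/- C mice had 12 counts, *Tph2*+/- mice 9 under C and 10 after MS, and *Tph2*+/+ mice 6 and 9. The higher *Tph2*-/- MS counts came from 2 mice with 6 counts each, and the nominal p for *Tph2*-/- against *Tph2*+/+ after MS was 0.0561 (adjusted p = 0.749 in edgeR's test). *Fkbp5* (ENSMUSG00000024222, chromosome 17, 28399094 to 28517527, minus strand) had 53 counts, from 0 to 4 per sample and from 5 counts in *Tph2*+/- C to 12 in *Tph2*+/+ C. *Tsc22d3* (ENSMUSG00000031431, chromosome X, 140539528 to 140600659, minus strand) had 45 counts, from 0 to 4 per sample and from 5 counts in *Tph2*+/+ MS to 11 in *Tph2*+/- MS. *Per1* (ENSMUSG00000020893, chromosome 11, 69095217 to 69109960, plus strand) had 9 counts in 48 samples, none of them in *Tph2*+/+ C and 3 in *Tph2*+/+ MS. For these 4 genes no group mean was above 3 counts, so no fold change is given.

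**Figure D2:**
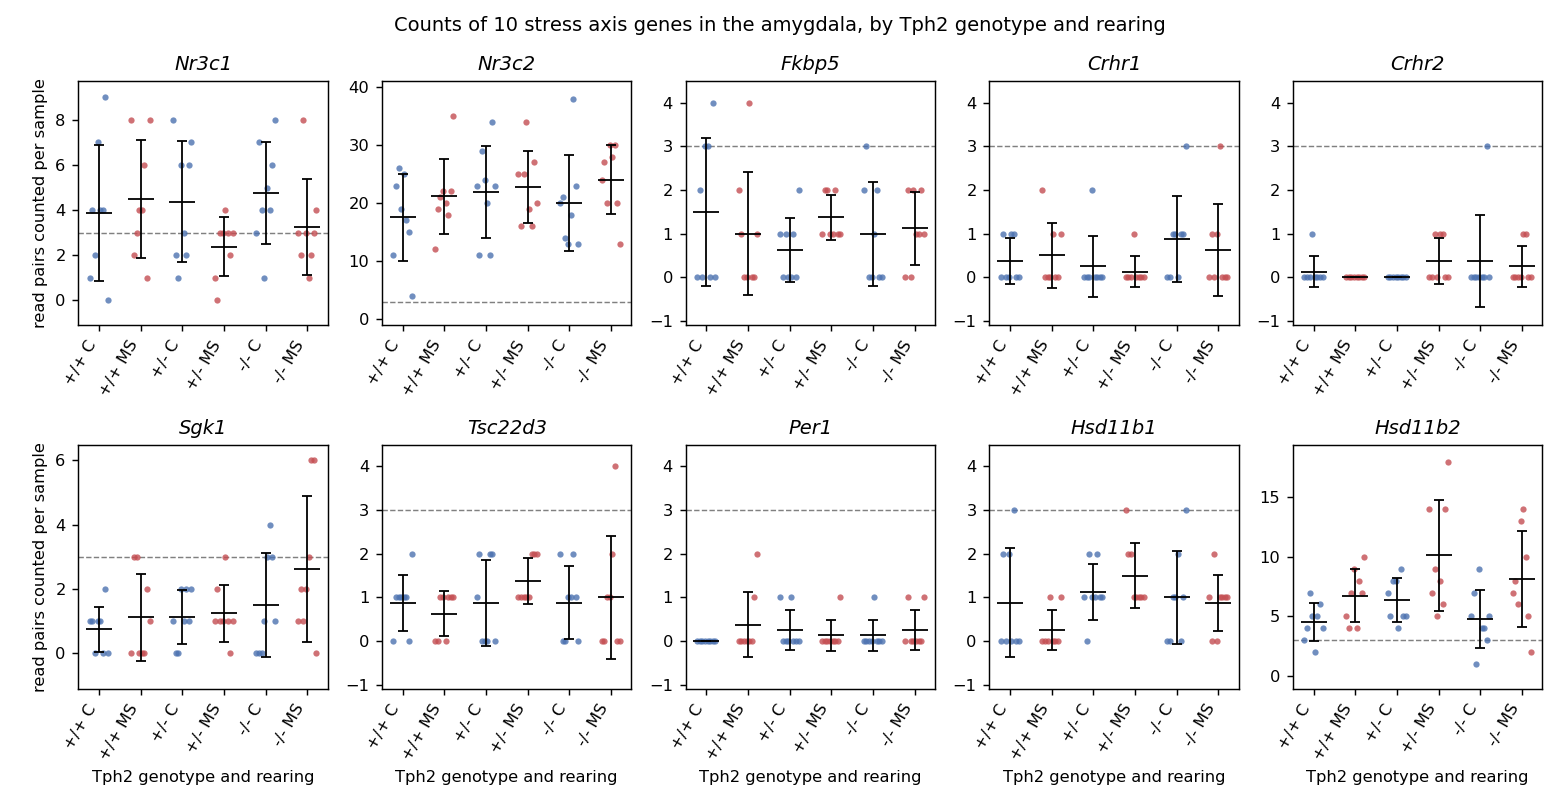
Read pairs counted per sample on each of the 10 genes (y axis, own scale per gene) by *Tph2* genotype and rearing (x axis, blue C and red MS), 8 mice per group, with the mean and SD in black and the floor of 3 counts as a dashed line. *Nr3c2* lies above the floor in all 48 samples and *Hsd11b2* in 43, while *Crhr1*, *Crhr2*, *Per1* and *Hsd11b1* never exceed it.

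The enzyme that regenerates corticosterone, *Hsd11b1* (ENSMUSG00000016194, chromosome 1, 193221634 to 193264075, minus strand), had 45 counts in all and at most 3 in a sample. After MS, *Tph2*+/+ mice had 2 counts in 8 mice, from 0 to 1 per mouse, and *Tph2*+/- mice had 12, from 1 to 3 per mouse. These were the lowest and the highest of its 6 groups, and they met at 1 count. The exact permutation p of the Mann-Whitney U statistic for this pair of groups was 0.00326 (two-sided), the smallest of 70 such tests, while edgeR gave a nominal p of 0.0106 and an adjusted p of 0.765. In edgeR the pair passed the DEG thresholds when replicate 4 or 8 of *Tph2*+/+ MS or replicate 5, 7 or 8 of *Tph2*+/- MS was left out, with nominal p between 0.00456 and 0.00999. Both groups were under the floor. *Lamb3*, in whose introns the *Hsd11b1* exons lie, had 15 counts in *Tph2*+/+ MS and 20 in *Tph2*+/- MS.

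The enzyme that inactivates corticosterone, *Hsd11b2* (ENSMUSG00000031891, chromosome 8, 105518755 to 105523988, plus strand, 1840 exonic bases), had more counts after MS than under C in each genotype. In *Tph2*+/+ mice it had from 2 to 7 counts (median 4.5) under C and from 4 to 10 (median 7) after MS. In *Tph2*+/- mice it had from 4 to 9 counts (median 6) under C and from 5 to 18 (median 8.5) after MS. In *Tph2*-/- mice it had from 1 to 9 counts (median 4.5) under C and from 2 to 14 (median 7.5) after MS. The ranges of C and MS overlapped in each genotype, with 3 of 8 MS mice above all C mice of their genotype in each of the 3. Scaled to library size, *Tph2*+/+ mice had 6.33 ± 1.92 CPM under C and 8.31 ± 2.55 after MS (SD, n = 8). *Tph2*+/- mice had 8.06 ± 2.28 and 12.1 ± 4.41 CPM, and *Tph2*-/- mice 5.85 ± 3.23 and 9.81 ± 3.85 CPM. The MS mean was the higher one in each genotype.

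*Hsd11b2* was the only stress gene to pass the DEG thresholds in the comparison of all 6 groups (edgeR's quasi-likelihood test, nominal p of 0.00759, adjusted p = 0.538), in which 1.67% of the 32234 genes tested passed. By genotype, its lg2FC for MS was 0.39 (standard error 0.34, nominal p of 0.253) in *Tph2*+/+, 0.63 (standard error 0.30, nominal p of 0.0373) in *Tph2*+/- and 0.77 (standard error 0.33, nominal p of 0.0199) in *Tph2*-/- mice. None of these passed the thresholds, with adjusted p of 0.762, 0.792 and 0.756 in edgeR's test and exact permutation p of the U statistic of 0.0578, 0.0889 and 0.0679. Averaged over the genotypes, a contrast chosen after the values were seen, the lg2FC was 0.60 (95% interval 0.23 to 0.96, nominal p of 0.00153, adjusted p = 0.718 in edgeR's test), or 1.51-fold, and 1.02% of all genes passed the thresholds in it. A difference in the MS effect on *Hsd11b2* between genotypes did not pass the test, with a lg2FC of 0.23 in GE1 (95% interval -0.68 to 1.15), 0.37 in GE2 (-0.57 to 1.32) and 0.14 between *Tph2*-/- and *Tph2*+/- mice (standard error 0.44). Leaving out 1 library moved these values to between 0.12 and 0.33, between 0.22 and 0.58 and between 0.01 and 0.35, and none passed.

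Several *Hsd11b2* calls depended on which libraries were included. No control had an animal number within the range of the MS mice, and most controls were numbered below all of them. Animal number thus separated C from MS in every MS contrast, and its part in the *Hsd11b2* result was not tested. Leaving out the controls numbered above the MS mice does not remove this separation. The controls numbered above all MS mice were the 7 with the highest animal numbers. They were 2 *Tph2*+/+, 2 *Tph2*+/- and 3 *Tph2*-/- mice, with 3 to 6 *Hsd11b2* counts each. Without them the nominal p was 0.0601 over the 6 groups and 0.0167 for the averaged contrast, so that neither passed, while the lg2FC was 0.97 in place of 1.07 for the largest step between the 6 groups and 0.50 in place of 0.60 for the averaged contrast. The 6-group call also ended when any of 13 of the 48 libraries was left out, namely replicates 2 and 5 of *Tph2*+/+ C, 1, 3, 7 and 8 of *Tph2*+/- MS, 3, 5, 6, 7 and 8 of *Tph2*-/- C or 4 and 5 of *Tph2*-/- MS, with nominal p between 0.0101 and 0.0337. Conversely, the MS effect in *Tph2*-/- mice passed without replicate 4 of *Tph2*-/- C (nominal p of 0.00534) or replicate 8 of *Tph2*-/- MS (0.00573). Cell type markers moved in the same comparisons. Over the 6 groups, 4 of the 28 markers tested passed the thresholds, against the 1.67% of all genes, namely *Ttr* (nominal p of 0.000255), *Snap25* (0.00244), *Syt1* (0.00491) and *Pecam1* (0.00788), the last with a mean of 0.604 counts. In the averaged contrast 1 passed, *Snap25*, which was lower after MS (lg2FC -0.52, nominal p of 0.00211). The part of these markers in the *Hsd11b2* result was not tested.

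**Figure D3:**
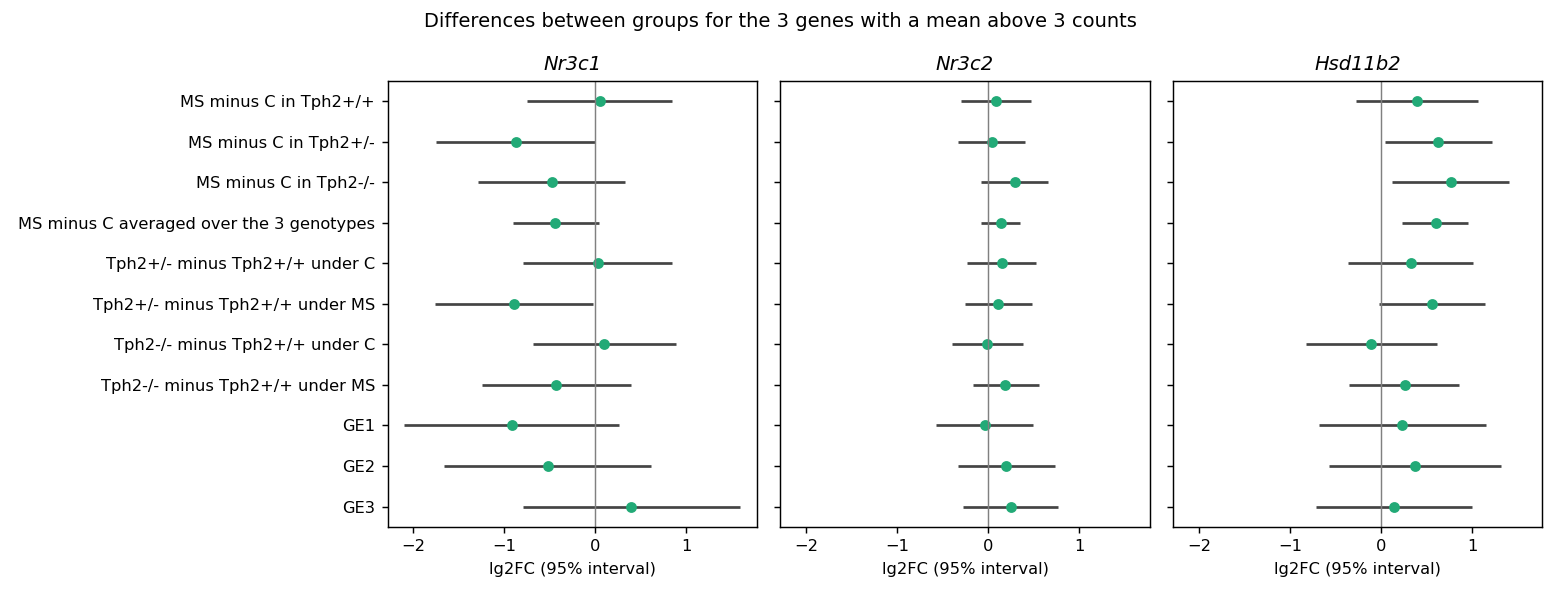
lg2FC (points) with 95% intervals (lines) for *Nr3c1*, *Nr3c2* and *Hsd11b2*, the genes with a mean above 3 counts, in 11 comparisons from edgeR's fit (rows). The intervals of *Hsd11b2* for MS lie above 0 in *Tph2*+/-, in *Tph2*-/- and averaged over genotypes, and those of *Nr3c2* are the narrowest and include 0 in every row.

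Over the pairwise comparisons, 0 of the 10 genes passed the DEG thresholds for MS in *Tph2*+/+ (1.41% of all genes did), in *Tph2*+/- (0.859%) or in *Tph2*-/- mice (0.831%). Likewise 0 passed for *Tph2*+/- against *Tph2*+/+ under C (1.28% of all genes) or after MS (1.01%) and for *Tph2*-/- against *Tph2*+/+ under C (0.822%) or after MS (1.35%). Of the 70 pairs of a gene and a comparison, 6 had a nominal p below 0.05 in edgeR, against 4.97% of all such pairs over the whole table, and 2 had one in DESeq2, which also called 0 pairs. The 6 pairs were those of *Nr3c1*, *Hsd11b1* and *Crhr2* for *Tph2*+/- against *Tph2*+/+ after MS, of *Crhr2* and *Hsd11b2* for MS in *Tph2*+/- and of *Hsd11b2* for MS in *Tph2*-/- mice. With exact permutation of the U statistic, 2 of 70 were below 0.05. Over all 12 comparisons, including the interactions, edgeR's adjusted p was below 0.05 for 0 of 120 pairs (0.0326% over the whole table), with 0.538 as the smallest.

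The gene-by-environment interactions are the contrasts GE1 (the MS effect in *Tph2*+/- minus that in *Tph2*+/+ mice) and GE2 (*Tph2*-/- in place of *Tph2*+/-), which share the *Tph2*+/+ mice, and GE3 sets *Tph2*-/- against *Tph2*+/-. No stress gene passed the thresholds in GE1, where 1.63% of all genes did, in GE2 (0.825%) or in GE3 (0.996%). Of the 30 pairs, 1 had a nominal p below 0.05 in edgeR, that of *Crhr2* in GE1, and 0 in DESeq2. For *Nr3c1* the lg2FC was -0.92 in GE1 (95% interval -2.10 to 0.26) and -0.52 in GE2 (-1.66 to 0.61). For *Nr3c2* the intervals were narrower, from -0.57 to 0.49 in GE1 and from -0.33 to 0.74 in GE2.

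Summed over the 10 genes, a sample had from 10 to 60 counts (median 37). In *Tph2*+/+ mice the sum was from 10 to 39 (median 36) under C and from 29 to 60 (33.5) after MS. In *Tph2*+/- mice it was from 20 to 49 (40.5) under C and from 30 to 47 (45) after MS, and in *Tph2*-/- mice from 21 to 55 (34) and from 22 to 55 (40.5). All groups overlapped, and the lowest sum was in replicate 8 of *Tph2*+/+ C and the highest in replicate 8 of *Tph2*+/+ MS. In CPM the sums were 42.3 ± 12.8 and 44.7 ± 9.82 in *Tph2*+/+ C and MS, 46.4 ± 11.4 and 51.0 ± 7.74 in *Tph2*+/- C and MS, and 42.8 ± 10.1 and 52.1 ± 9.59 in *Tph2*-/- C and MS (SD, n = 8). The step from the lowest to the highest group mean was 31.7% of the overall mean in raw counts, where the SD between mice of a group was 26.9%, and 21.1% in CPM, where it was 22.3%. The sum was not tested. *Nr3c2* and *Hsd11b2* gave 75.5% of the sum. Without them, the other 8 genes together had 67 counts in each of *Tph2*+/+ C and *Tph2*+/+ MS, 69 and 68 in *Tph2*+/- C and MS, and 84 and 80 in *Tph2*-/- C and MS.

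**Figure D4:**
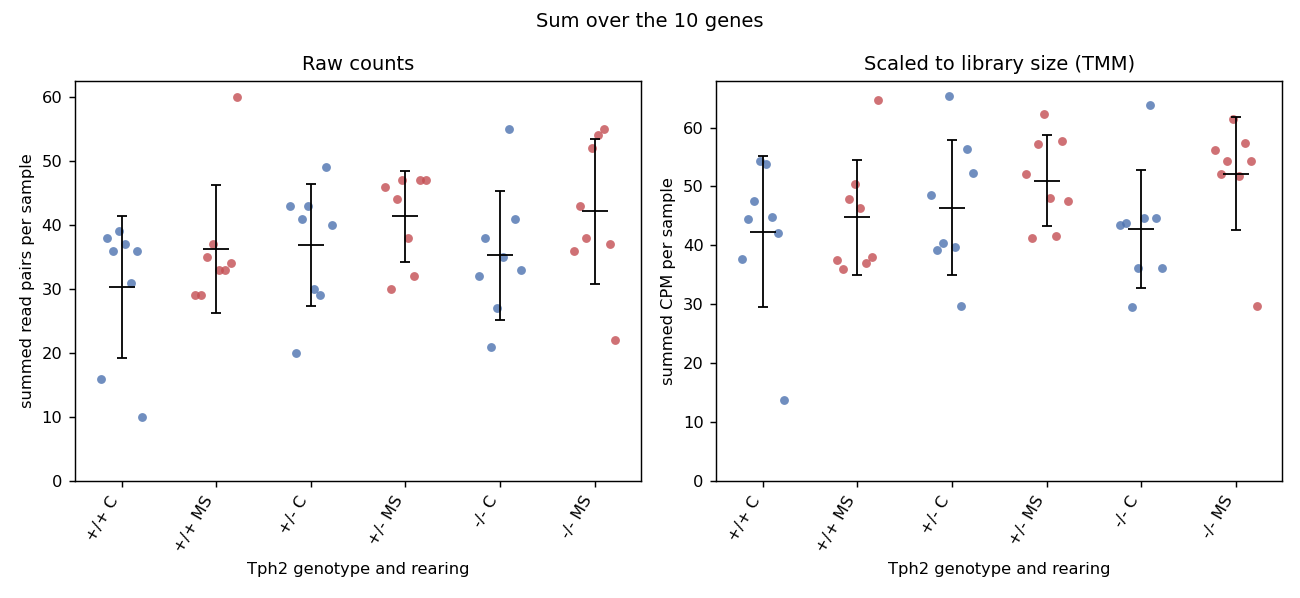
Sum over the 10 genes per sample (points) in raw read pairs (left) and in CPM (right) by *Tph2* genotype and rearing (blue C, red MS), with the mean and SD of 8 mice in black. The group means range from 42.3 to 52.1 CPM and the points of all 6 groups overlap.

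Of 52 other listed genes of the stress axis, 16 had a mean above 3 counts and 9 a mean of at least 10, and 48 could be tested. Among peptides and their receptors 1 of 12 was above 3 counts, *Crhbp*, the CRH-binding protein, with a mean of 3.15, while *Crh* itself had 1.44 and *Avp* and *Oxt* had none. Among receptor chaperones and coregulators 7 of 12 were above 3 counts, among them the HSP90 genes *Hsp90aa1* (97.4) and *Hsp90ab1* (69.2) and the co-repressor gene *Ncor1* (470). Among glucocorticoid-induced genes 6 of 20 were, and the 3 with a mean of at least 10 were *Plin4* (46.4), *Sult1a1* (28.6) and *Cebpd* (13.8). Among genes of corticosteroid metabolism and transport 2 of 8 were, *Star* (165), which brings cholesterol into mitochondria, and *Srd5a1* (20.5), a steroid 5α-reductase. Of the 9 genes with a mean of at least 10, 4 have exons opposite to exons of another gene (*Ncor1*, *Plin4*, *Sult1a1* and *Cebpd*) and 5 do not (*Hsp90aa1*, *Hsp90ab1*, *Hspa8*, *Star* and *Srd5a1*).

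For MS, 0 of the 48 genes tested passed the DEG thresholds in any genotype or in GE1 and GE2. Between genotypes, *Srd5a1* was higher in *Tph2*+/- than in *Tph2*+/+ mice after MS (lg2FC 0.62, standard error 0.20, nominal p of 0.00154), with 24.5 ± 7.91 against 15.9 ± 5.38 counts. *Hspa8*, a chaperone of the receptors, was higher in *Tph2*-/- than in *Tph2*+/+ mice under C (lg2FC 0.97, standard error 0.32, nominal p of 0.00339), with 17.4 ± 6.76 against 7.75 ± 5.55 counts. The adjusted p of these were 0.765 and 0.780 in edgeR's test. *Nfkbia*, lower in *Tph2*-/- than in *Tph2*+/+ mice after MS, and *Bag1*, higher in GE3, passed with means of 0.562 and 0.792 counts, under the floor. In these 4 comparisons 1 of the 48 genes passed in each, where of all genes 1.01%, 0.822%, 1.35% and 0.996% did in the order given.

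The tissue label could be checked only in part. Of 29 cell type markers, 17 had a mean above 3 counts and 6 a mean of at least 10. Of 6 amygdala markers 1 was above the floor, *Meis2* with a mean of 8.62, and *Dlk1* was at 0 in all samples. The neuronal list (6 genes) summed to between 16.7 and 85.3 CPM per sample and the microglial list (3 genes) to between 198 and 291 CPM, with *Csf1r*, which faces exons of *Hmgxb3* over 873 bases, at a mean of 135 counts. The choroid plexus list (3 genes) had group medians between 97.3 and 117 CPM, nearly all of it on *Kcnj13*, which faces exons of *Gigyf2* over 623 bases, while *Ttr*, the transthyretin gene, had a mean of 3.06 counts. The medians of the neuronal list were 39.2 CPM in *Tph2*+/+ C and 57.4 CPM in *Tph2*-/- C, where *Syt1* passed the thresholds (lg2FC 0.69, nominal p of 0.00181), as *Hspa8* did in the same comparison, and the part of the neuronal list in that result was not tested. Among the interactions, *Slc17a7*, a marker of glutamatergic neurons with a mean of 2.10 counts, passed in GE1 with a negative lg2FC (nominal p of 0.000789) and *Gad1*, a marker of GABAergic neurons, in GE2 (lg2FC -1.38, nominal p of 0.00918). In the pairwise comparisons, *Slc17a7* was higher for MS in *Tph2*+/+ mice (nominal p of 0.00684) and for *Tph2*+/- against *Tph2*+/+ under C (0.000859), where *Pecam1* was lower (0.00339). *Ttr* was higher in *Tph2*-/- than in *Tph2*+/+ mice after MS (nominal p of 0.000487), the comparison in which *Nfkbia* passed, and its part in that result was not tested.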

How the data were processed

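Amygdala RNA of 48 mice was sequenced as paired-end stranded total RNA libraries. The submitters' processing notes name STAR, HTSeq, DESeq2 and the build GRCm38.p5, and the authors deposited raw counts of read pairs per Ensembl gene, without normalization. The strand setting, the annotation and the tool versions for counting are not given in the sources used here. Genes were placed with GENCODE M21 on GRCm38, which holds 48058 of the 48440 genes. Groups came from the sample labels, and all 48 columns were matched to a mouse.

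The tests covered the 32234 genes counted at least once, leaving out *Lars2* as the study did. Counts were scaled by TMM and fitted with edgeR 4.0.16 (R 4.3.3, 1 coefficient per group, robust quasi-likelihood F test, Benjamini-Hochberg adjustment over all genes tested). The thresholds for a DEG were those of the study (nominal p 0.01, lg2FC 0.2 in either direction). In the comparison of 6 groups the lg2FC was the largest step between groups. DESeq2 1.42.0 was an alternative. The U statistic of Mann and Whitney on raw counts was tested by exact permutation (two-sided) for 70 pairs of a gene and a comparison, without adjustment. Log2 CPM for correlations used an offset of 0.5 counts. The fit was tested on simulated data. In GE1, 54 of 100 genes changed 2-fold and 99 of 100 changed 4-fold passed the DEG thresholds, as did 0.869% of unchanged genes. The changed genes had a mean of at least 10 counts, which of the stress genes only *Nr3c2* reached, so the test does not cover the others. Python 3.11.15 with NumPy 2.4.6, SciPy 1.17.1, pandas 2.3.3 and matplotlib 3.10.9 was used.

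The genes named were the 10 stress genes, genes opposite to their exons or span, genes of 4 wider lists past the DEG thresholds, the 2 genes most correlated with each stress gene of at least 10 mean counts (1 of them is not reported here), cell type markers, *Gm42418* and *Lars2*. Genes named by their levels, *Atp6v0d1* and the marker and list genes below the thresholds were added after their values were seen. The stress genes and lists were chosen with earlier results of these data known. Alternatives were edgeR without the robust option, DESeq2, DESeq2 size factors, a minimum mean of 10 counts, filterByExpr, *Lars2* included, *Gm42418* left out, a replicate block, leaving out libraries and a fit of only the groups in an interaction. The contrast averaged over genotypes, the library size of all uniquely placed pairs and the sums without *Nr3c2* and *Hsd11b2* were chosen after seeing the data.

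Any 2 samples differed in at least 15079 genes, so no library was present more than once. The labels do not say that the mice of a group came from separate litters, and p-values measure the spread between mice. Rearing was assigned to whole litters, so the p-values for MS against C do not account for the litter as the treated unit. Replicate numbers did not pair the samples: of 120 pairs with the same number, 25 had a correlation of their deviations from the group means above 0.1 (median 0.00154). Of 840 pairs with other numbers, 158 did (median -0.00372).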

Additional observations from a re-analysis of the deposited data

Results flagged for a closer look

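In 60 sets of 8 mice (raw counts and CPM of *Nr3c1*, *Nr3c2*, *Hsd11b2*, *Gm10649* and the sum of the 10 genes), 9 had a highest or lowest mouse whose gap to the next, as a share of the group's range, exceeded Dixon's 95% critical value. Chance gives such a gap in about 1 of 20 groups, and counts and CPM of a gene are not independent. For *Nr3c1* it was replicate 3 of *Tph2*-/- MS with 8 counts (11.4 CPM), against a group median of 3 counts (3.98 CPM). For *Nr3c2* it was replicate 8 of *Tph2*+/+ MS with 35 counts, against a median of 20.5, and replicate 6 of *Tph2*-/- C with 38 counts (44.1 CPM), against a median of 19 counts (23.6 CPM). The sum of the 10 genes was high in these same mice, with 60 counts in replicate 8 of *Tph2*+/+ MS (median 33.5) and 63.8 CPM in replicate 6 of *Tph2*-/- C (median 43.6). It was low in replicate 8 of *Tph2*+/+ C with 13.8 CPM (median 44.7) and in replicate 8 of *Tph2*-/- MS with 29.7 CPM (median 54.3). The causes were not tested. No interaction of the 10 genes passed the DEG thresholds.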

How the results depend on the processing

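The count of stress genes past the DEG thresholds over the 6 groups was 1 (*Hsd11b2*) and stayed at 1 with edgeR without the robust option, DESeq2, its size factors, *Lars2* kept, *Gm42418* left out, without the 4 libraries richest in it, with the library size of all uniquely placed pairs (chosen after seeing the data) and with a replicate block (nominal p of 0.00633, 1 called). It was 0 with filterByExpr or a minimum mean of 10 counts, since of the 10 genes both filters leave only *Nr3c2*, and 0 when the 7 controls numbered above all MS mice were left out, where the cause was not tested. The same 3 settings gave 0 in place of 1 for the contrast averaged over genotypes. Leaving out each library in turn gave between 0 and 1 over the 6 groups, between 0 and 1 for MS within a genotype, between 0 and 1 for genotype within a rearing condition, 0 for the interactions and 1 for the averaged contrast (nominal p from 0.000539 to 0.00373). For genotype within rearing, the exact permutation test placed 1 pair below 0.01 (*Hsd11b1*, p = 0.00326) where edgeR called 0. The other settings left these counts at 0 for MS within a genotype, genotype within rearing and the interactions, and the replicate block, with replicate numbers that did not pair the mice, changed no call. No lg2FC of *Hsd11b2*, *Nr3c1* and *Nr3c2* printed for MS changed its sign in the settings run. The step between the group means of the sum, 31.7% of the overall mean in raw counts, lay between 21.1% and 36.3% in the other settings, a shift smaller than the spread of 26.9% between mice, with the step above the spread within the same setting in raw counts, without the 4 libraries and without *Nr3c2* and below it otherwise. Among the limits, 7 of the 10 genes had means at or below 3 counts, so that no size is given for their differences, and most uniquely placed pairs were on no gene. The lg2FC for MS in *Tph2*-/- mice moved by over 1.5 times for *Nr3c1* without replicate 3 of *Tph2*-/- MS (-0.85 in place of -0.48).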
